A study of Homo sapiens with 3 samples.

Results

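The ID genes, SMAD3 and feedback inhibitors of TGF-beta and BMP signalling were examined in the established human breast cancer line MDA-MB-231. The line is mesenchymal-like and generally counted among lines without oestrogen receptor alpha (ERα). The set holds 9 genes: ID1, ID2, ID3 and ID4, and SMAD3, SMAD6, SMAD7, BAMBI and SKIL. The genes were chosen by a fixed list of symbols drawn up with earlier results of these data known, in particular their differences from vehicle, so their values are a description and no test is given. Every probe set paired with exactly 1 symbol, that symbol being one of the 9, was taken, which gave 24 of 54675 probe sets and 9 of 19775 genes. Treatment lasted 3 h, with 1 µM ERα17p (a peptide taken from the ERα sequence), with 1 µM of the oestrogen estradiol, or with 0.1% ethanol as vehicle. All 3 groups had first spent 4 h in 10% charcoal-stripped serum, a serum depleted of steroids, and stayed in it. The sources used here do not name the solvent of the peptide. Each group had 1 Affymetrix HG-U133 Plus 2 array, so there are no replicates and no p-value can be given.

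ID proteins are helix-loop-helix factors without a DNA-binding region. They pair with E proteins and other basic helix-loop-helix factors and keep them off DNA, and they hold cells in a proliferating, less differentiated state. BMPs, acting through receptor-activated SMADs, are their best-known inducers, and serum also induces them. SMAD6 and SMAD7 (the inhibitory SMADs), the decoy receptor BAMBI and the co-repressor SKIL (SnoN) are induced by the same signals and dampen them, while SMAD3 carries the TGF-beta signal to the nucleus. In breast cancer ID1 and ID3 are known for their part in metastatic colonisation of the lung.

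The ID genes shared a direction against vehicle, and their promoters are printed to show what their start regions hold. Each window is the 250 bases before the annotated start, from the RefSeq table of GRCh38.p14, with base -1 next to the start. Capitals mark matches, on either strand, to TATAA (the TATA box core), CCAAT (bound by NF-Y), GGCGCC (a GC-rich element of BMP-activated SMADs) or GTCTAGAC (the palindrome bound by SMAD3 and SMAD4). These motifs were chosen after the values and the sequences had been seen. SMAD6 is printed as a feedback gene that was not called in any comparison. The windows of SMAD3, SMAD7, BAMBI and SKIL are not printed, so the matches do not set called genes apart from others. All windows run 5′ to 3′ along the gene.
ID1, chr20:31605039-31605288, plus strand: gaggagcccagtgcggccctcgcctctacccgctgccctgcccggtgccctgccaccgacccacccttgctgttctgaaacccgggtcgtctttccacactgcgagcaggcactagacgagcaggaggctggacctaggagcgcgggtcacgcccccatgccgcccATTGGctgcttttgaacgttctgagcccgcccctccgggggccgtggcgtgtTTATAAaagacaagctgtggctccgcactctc
ID2, chr2:8681806-8682055, plus strand: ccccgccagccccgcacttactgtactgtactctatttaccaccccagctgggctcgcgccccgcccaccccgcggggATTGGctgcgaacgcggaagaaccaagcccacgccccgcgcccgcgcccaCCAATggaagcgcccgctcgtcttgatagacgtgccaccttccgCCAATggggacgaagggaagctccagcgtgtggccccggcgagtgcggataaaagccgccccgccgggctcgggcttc
ID3, chr1:23559502-23559751, minus strand: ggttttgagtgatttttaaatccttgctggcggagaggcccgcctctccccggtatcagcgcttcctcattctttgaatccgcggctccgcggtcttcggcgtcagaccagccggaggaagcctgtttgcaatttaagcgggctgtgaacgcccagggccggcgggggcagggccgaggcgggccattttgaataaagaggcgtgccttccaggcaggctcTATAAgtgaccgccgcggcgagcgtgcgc
ID4, chr6:19837120-19837369, plus strand: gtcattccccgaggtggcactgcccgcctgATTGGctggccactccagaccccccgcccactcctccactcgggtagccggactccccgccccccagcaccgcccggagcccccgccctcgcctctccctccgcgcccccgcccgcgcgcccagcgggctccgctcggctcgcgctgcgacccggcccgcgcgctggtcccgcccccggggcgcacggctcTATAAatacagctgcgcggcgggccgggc
SMAD6, chr15:66701986-66702235, plus strand: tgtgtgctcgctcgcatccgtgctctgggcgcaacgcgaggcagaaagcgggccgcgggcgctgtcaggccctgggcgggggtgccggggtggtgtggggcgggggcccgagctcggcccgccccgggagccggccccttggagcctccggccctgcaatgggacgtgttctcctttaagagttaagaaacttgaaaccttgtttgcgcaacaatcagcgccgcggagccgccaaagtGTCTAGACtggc

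A TATAA match lay at bases -31 to -27 of ID1, and at bases -29 to -25 of both ID3 and ID4. In ID1 the reverse strand matched too, 1 base further out, and these were the only capitals that overlapped. ID2 had no TATAA and instead 3 CCAAT matches, which began at bases -172, -122 and -78. ID1 and ID4 had 1 CCAAT match each, ID3 had 0, and GGCGCC was in none of these 5 windows. GTCTAGAC was at bases -12 to -5 of SMAD6 and in no ID window. Of 35116 RefSeq windows, 18.9% hold TATAA, 32.0% hold CCAAT, 16.4% hold GGCGCC and 0.182% hold GTCTAGAC. The shorter CAGAC, which is not capitalised, occurred in the ID3 and ID4 windows and occurs in 38.0% of all windows. A match describes letters in these windows and does not show that a factor binds there. Sequence farther from the start was not searched.

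Values are log2 values that had been centred for each probe set before deposit, on a level whose origin is not stated. A value of 0 is that level, and expression levels themselves are unknown, also those of markers of the line. A gene's difference is the median over its probe sets of the difference between 2 arrays. Calls of higher or lower needed 1.5-fold or more, which is 0.58 on the log2 scale.

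The vehicle array stood apart in spread and in added control RNAs. The centred values had an SD of 0.241 with ERα17p, 0.260 with estradiol and 0.494 with vehicle. Labelling spikes, bacterial RNAs added before labelling, were higher than with vehicle by 2.04 with ERα17p and by 2.03 with estradiol (medians of 27 probe sets). Hybridisation spikes, added later, were at -0.93 and -0.74 (18 probe sets). Between the ERα17p and estradiol arrays the same medians were 0.00 and -0.15. Other controls did differ between these 2 arrays. The 18S ribosomal RNA median (3 probe sets) was 0.53 higher with ERα17p than with estradiol. Against vehicle it was at 0.67 with ERα17p and 0.11 with estradiol. The 3′ minus 5′ probe set value of ACTB was 0.58 higher with ERα17p than with estradiol, and that of GAPDH 0.09 higher. The part of these array differences in the results below was not tested. Of 10 markers of luminal breast epithelium, 0 were higher and 1 was lower with ERα17p than with vehicle, and 1 was higher and 1 lower with estradiol than with vehicle. Of 6 blood cell markers 1 was higher and 0 were lower in each of these comparisons, and of 8 markers of fibroblasts and endothelium 1 was higher, with estradiol. Between ERα17p and estradiol 1 marker passed 1.5-fold, LUM, which encodes a matrix proteoglycan, at -0.63. Its 2 probe sets disagreed, at -1.36 and 0.10. Over all genes, 9.56% were higher and 8.82% lower with ERα17p than with vehicle, and 10.6% and 8.42% with estradiol. With ERα17p against estradiol these shares were 1.29% and 2.04%.

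All 4 ID genes were lower on both treated arrays than on the vehicle array, and ID1, ID2 and ID3 by more than 2-fold. With estradiol ID2 was less than 2-fold lower under some alternatives, as given with its values. Set against the centring level in place of vehicle, described below, ID1, ID2 and ID3 did not reach 2-fold. SMAD7 and BAMBI were higher on both treated arrays than on the vehicle array. SMAD3, SMAD6 and SKIL did not reach 1.5-fold in any comparison. With ERα17p against vehicle, 2 of the 9 genes were called higher, beside 9.56% of all genes, and 4 were called lower, beside 8.82% of all genes. With estradiol against vehicle, 2 were called higher, beside 10.6% of all genes, and 4 were called lower, beside 8.42%. At 2-fold, 1 was higher and 3 were lower with ERα17p (all genes 3.34% and 2.48%) and likewise with estradiol (all genes 3.94% and 2.18%). The median difference of the 9 genes was -0.25 with ERα17p and -0.17 with estradiol, while that of all genes was 0.00 in both. Both comparisons use the same vehicle array, so they are not independent of each other.

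**Figure D1:**
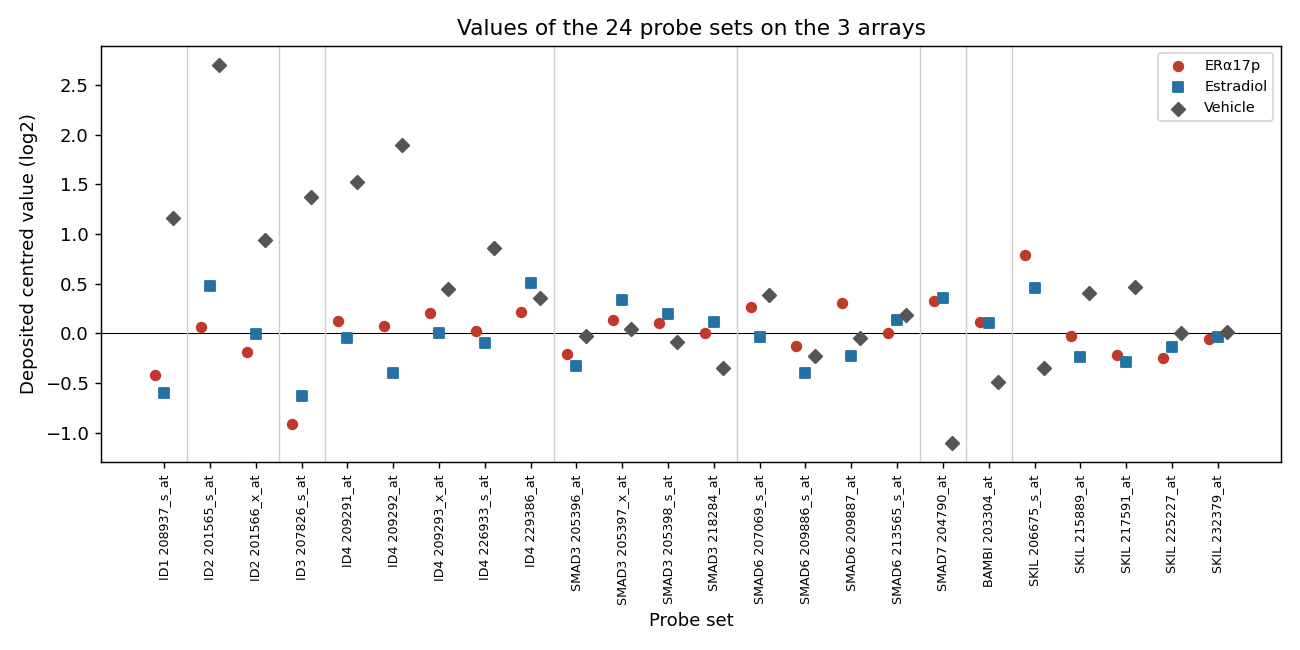
Deposited centred log2 values (vertical axis) of the 24 probe sets of the 9 genes (horizontal axis), with 1 point for each array: ERα17p (circles), estradiol (squares) and vehicle (diamonds). The vehicle array lies above both treated arrays in 8 of the 9 ID probe sets and below both for SMAD7 and BAMBI.

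ID3 had the largest difference of the set. Its single probe set was at -0.91 with ERα17p and -0.63 with estradiol, against 1.37 with vehicle. Both treated values lay below the centring level and the vehicle value lay above it. The difference from vehicle was -2.28 with ERα17p (4.85-fold lower), rank 14 from the lowest of 19775 genes. With estradiol it was -2.00 (4.01-fold lower), rank 29.

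ID1, also read by 1 probe set, had its vehicle value above both treated values too. It was at -0.42 with ERα17p and -0.60 with estradiol, against 1.16 with vehicle. Its difference from vehicle was -1.58 with ERα17p (2.99-fold lower, rank 76). It was -1.76 with estradiol (3.39-fold lower, rank 45). ID1 and ID3, which are often induced together, thus had both treated values below the centring level.

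ID2 differed from them in where its treated values lay. Its probe set 201565_s_at was at 0.07 with ERα17p and 0.48 with estradiol, against 2.70 with vehicle, rank 37 from the highest of all 54675 probe sets on the vehicle array. Its probe set 201566_x_at was at -0.19 and 0.00 on the treated arrays in that order, against 0.94 with vehicle. The treated values thus lay within 0.48 of the centring level, and the vehicle value was the distant one in both probe sets. The gene difference from vehicle was -1.88 with ERα17p (3.69-fold lower, rank 39). With estradiol it was -1.58 (3.00-fold lower, rank 74). A further probe set, 213931_at, is paired with both ID2 and ID2B and was left out by the rule. It differed from vehicle by -0.95 with ERα17p and by -0.93 with estradiol. With it included, an alternative added after the data were seen, the ID2 difference was -1.13 with ERα17p and -0.94 with estradiol. After quantile normalisation it was -1.23 and -0.85 in that order, so with estradiol ID2 was less than 2-fold lower in both settings.

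ID4 had 5 probe sets, and they differed from vehicle by unequal amounts. Probe set 209292_at was at 0.08 with ERα17p and -0.40 with estradiol, against 1.90 with vehicle. Probe set 209291_at was at 0.12 with ERα17p and -0.05 with estradiol, against 1.52 with vehicle. These are the probe sets in which the vehicle array stood farthest from the others. Probe set 226933_s_at was at 0.02 with ERα17p and -0.10 with estradiol, against 0.86 with vehicle. Probe set 209293_x_at was at 0.21 with ERα17p and 0.00 with estradiol, against 0.45 with vehicle. The remaining one, 229386_at, was at 0.21 with ERα17p and 0.50 with estradiol, against 0.35 with vehicle, so the vehicle value lay between the treated ones. The gene difference from vehicle was -0.84 with ERα17p, with probe sets between -1.82 and -0.14. With estradiol it was -0.96, with probe sets between -2.30 and 0.15. After quantile normalisation of the deposited values, ID4 was at -0.55 with ERα17p, under the call limit.

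Over the 9 ID probe sets, 7 were at least 1.5-fold lower with ERα17p than with vehicle, beside 12.1% of all 54675 probe sets, and 7 with estradiol, beside 12.6%. Their median differences were -1.40 with ERα17p and -1.57 with estradiol. Their vehicle values lay between percentiles 86.0 and 99.9 of all probe sets on that array. The ID1, ID2, ID3 and ID4 gene medians had ranks 144, 20, 75 and 394 from the highest of 19775 genes on the vehicle array. On the treated arrays only ID3 and ID1 lay among the low genes. ID3 had rank 25 from the lowest with ERα17p and rank 67 with estradiol, and ID1 had ranks 490 and 91 in that order of arrays.

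The treated arrays were also set against the deposited centring level in place of the vehicle array. By this measure 0 of the 9 genes were called higher with ERα17p, beside 0.496% of all genes, and 1 was called lower, ID3 at -0.91, beside 0.632%. With estradiol 0 were called higher, beside 1.28% of all genes, and 2 were called lower, ID3 at -0.63 and ID1 at -0.60, beside 0.516%. ID2 was at -0.06 with ERα17p and 0.24 with estradiol by the same measure, and ID4 at 0.12 and -0.05. The arrays behind the centring level are unknown, so this measure does not place the difference on either side.

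**Figure D2:**
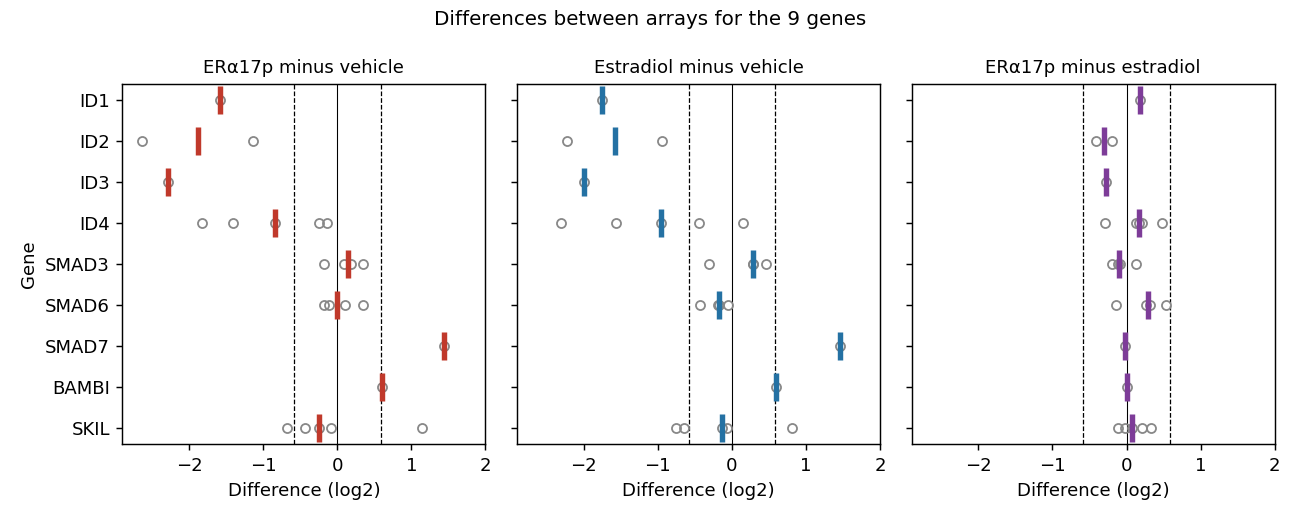
Log2 differences between arrays (horizontal axis) for the 9 genes (rows), with open circles for probe sets, coloured bars for the gene median and dashed lines at 1.5-fold. The ID bars lie left of the lower dashed line and the SMAD7 bar lies right of the upper one in both panels with vehicle, and no bar passes either line in the panel of ERα17p against estradiol.

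SMAD7, which blocks type I receptors and recruits ubiquitin ligases to them, went the opposite way from the ID genes. Its probe set was at 0.33 with ERα17p and 0.36 with estradiol, against -1.11 with vehicle. The treated arrays lay 0.03 apart and the vehicle array was low, at percentile 2.37 of its probe sets. The difference from vehicle was 1.43 with ERα17p (2.70-fold higher) and rank 242 from the highest of 19775 genes. With estradiol it was 1.46 (2.75-fold higher) and rank 258.

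BAMBI, a membrane protein like a type I receptor that lacks the kinase, had a smaller difference of the same sign. Its probe set was at 0.11 on both treated arrays, against -0.49 on the vehicle array. The difference from vehicle was 0.60 with ERα17p and 0.60 with estradiol (1.52-fold each), just past the call limit of 0.58. After quantile normalisation it was 0.51 and 0.50, under that limit. It ranked 1806 and 2026 from the highest, and its call stands beside a background share of 9.56% and 10.6% of all genes.

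SMAD6, the inhibitory SMAD more active against BMP signals, showed no common direction. Its 4 probe sets were between -0.13 and 0.30 with ERα17p and between -0.39 and 0.14 with estradiol, against -0.23 to 0.38 with vehicle, so the ranges overlap. The gene difference from vehicle was -0.01 with ERα17p, with 2 probe sets higher and 2 lower. It was -0.17 with estradiol, with all 4 probe sets lower but none by 1.5-fold. The inhibitory SMADs thus did not share a pattern on these arrays, SMAD7 passing 2-fold and SMAD6 not reaching 1.5-fold.

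SKIL, which represses SMAD targets and is degraded on TGF-beta signalling, split by probe set. Probe set 206675_s_at was at 0.79 with ERα17p and 0.46 with estradiol, against -0.35 with vehicle, a difference of 1.15 and 0.81. The other 4 were lower with both treatments than with vehicle, by -0.68 to -0.08 with ERα17p and by -0.75 to -0.06 with estradiol. The lowest of these was 217591_at, at -0.22 with ERα17p and -0.28 with estradiol, against 0.47 with vehicle. The gene medians, -0.25 with ERα17p and -0.14 with estradiol, fall among the 4 lower probe sets, and which transcripts each one reads is not known here.

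SMAD3 differed little between the arrays. Its 4 probe sets were between -0.20 and 0.13 with ERα17p and between -0.33 and 0.33 with estradiol, against -0.35 to 0.04 with vehicle. The ranges overlap. The gene difference from vehicle was 0.14 with ERα17p and 0.29 with estradiol, with 3 of 4 probe sets higher in each.

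**Figure D3:**
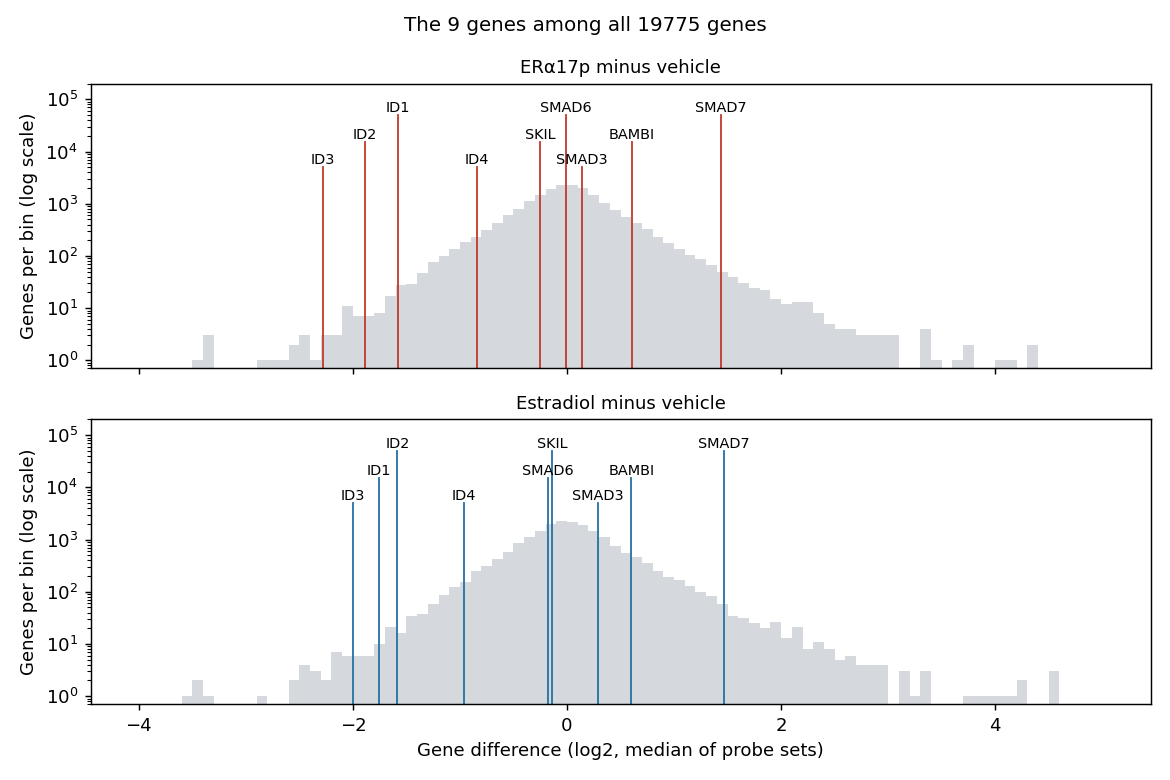
Number of genes per bin of 0.1 (vertical axis, log scale) by log2 difference from vehicle (horizontal axis) for all 19775 genes, with the 9 genes marked by lines whose heights only separate the labels. ID1, ID2 and ID3 lie in the sparse lower tail, SMAD7 in the upper tail, and SMAD3, SMAD6 and SKIL in the bulk.

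The direct comparison leaves the vehicle array out. With ERα17p against estradiol, 0 of the 9 genes were called higher, beside 1.29% of all genes, and 0 were called lower, beside 2.04%. At 2-fold, where 0.0354% of all genes were higher and 0.212% lower, the counts of the 9 genes were also 0. ID2 had the lowest difference at -0.30, with both probe sets lower (-0.41 and -0.19), and ID3 was at -0.28. ID1 and ID4 lay on the other side of 0, at 0.18 and 0.17. The ID genes, which shared a sign against vehicle, thus had no common sign between the treatments.

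Among SMAD3 and the feedback genes in the direct comparison, SMAD6 had the highest difference at 0.29. Its probe set 209887_at was the farthest apart of all 24, at 0.30 with ERα17p and -0.22 with estradiol, a difference of 0.53 that stays under the call limit. SKIL was at 0.07, BAMBI at 0.00, SMAD7 at -0.03 and SMAD3 at -0.11. The median absolute difference over all genes was 0.14 in this comparison, 0.25 for ERα17p against vehicle and 0.25 for estradiol against vehicle. BAMBI, SMAD7, SKIL and SMAD3 each differed between the treated arrays by less than that median. SMAD6, ID1, ID2, ID3 and ID4 each differed by more.

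Ligands upstream of these genes were mixed. Counts in the pathway lists stand beside 9.56% of all genes higher and 8.82% lower with ERα17p. With estradiol the shares of all genes are 10.6% higher and 8.42% lower. Of 10 ligands of TGF-beta, activin and BMP type, 4 were higher and 1 was lower with ERα17p than with vehicle (median 0.05), and 4 were higher and 2 lower with estradiol (median 0.15). BMP2, an inducer of ID genes in many cell types, was higher by 1.64 with ERα17p and by 1.27 with estradiol. Its probe set medians were 0.67 with ERα17p and 0.30 with estradiol, against -0.97 with vehicle. BMP2 thus had the opposite sign from the ID genes in both comparisons. The other BMPs of the list, BMP4, BMP6 and BMP7, were not called in either. INHBA, the activin A subunit, was higher by 1.10 with ERα17p and by 0.80 with estradiol (0.53, under the call limit, with estradiol after quantile normalisation). TGFB2 was just past 2-fold higher with ERα17p, with its 5 probe sets between 0.27 and 2.13 on the log2 scale. With estradiol TGFB2 was 0.75 higher, with probe sets between 0.28 and 2.24. GDF11, a ligand of activin receptors, was at -1.32 with estradiol, with its 5 probe sets between -1.58 and -0.11. With ERα17p GDF11 was at -0.58, just under the call limit, with probe sets between -1.43 and 0.27.

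Of 11 measured receptors, 3 were higher and 2 were lower with ERα17p (median 0.11), and 3 were higher and 1 lower with estradiol (median -0.05). ACVR1, a type I receptor for BMPs, was 1.44 higher with ERα17p and 1.34 higher with estradiol. TGFBR2, the type II receptor of TGF-beta, was 0.97 and 1.08 higher in that order. The 2 probe sets of TGFBR2 were at 0.36 and 1.58 with ERα17p and at 0.49 and 1.66 with estradiol. In each comparison 1 of them was thus under the call limit. ENG, the co-receptor endoglin, was at -1.59 with ERα17p and -1.19 with estradiol. Its 2 probe sets disagreed, at -2.86 and -0.32 with ERα17p and at -2.50 and 0.12 with estradiol.

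The 5 other SMADs differed less than SMAD7. SMAD2, the partner of SMAD3 in TGF-beta signalling, was called higher, at 0.69 with ERα17p and 0.73 with estradiol, and it was the only one called by the median of all probe sets (medians of the 5 genes 0.22 and 0.18). Without probe sets that may match several transcripts SMAD2 was under the call limit, at 0.44 with ERα17p and 0.55 with estradiol, and SMAD9 passed it with estradiol, at -0.74. After quantile normalisation SMAD2 was at 0.53 with ERα17p, also under the limit. SMAD5, which carries BMP signals, was at 0.51 with ERα17p, under the call limit. SMAD9 was at -0.40 with ERα17p and -0.31 with estradiol, and SMAD1 at -0.33 with estradiol.

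Of 12 other inhibitors and ligand-binding proteins, 1 was higher and 3 were lower in each comparison with vehicle (medians -0.16 with ERα17p and -0.26 with estradiol). FSTL3 and FST, secreted proteins that trap activins, were at -1.65 and -1.12 with ERα17p and at -1.41 and -0.97 with estradiol. TGIF2, a nuclear co-repressor of SMADs, was at -0.86 with ERα17p and -1.11 with estradiol. LTBP1, which anchors latent TGF-beta in the matrix, was 1.54 higher with ERα17p and 1.11 higher with estradiol. Its 2 probe sets were at 1.07 and 2.01 with ERα17p and at 0.37 and 1.85 with estradiol. LTBP1 was the 1 called higher, beside 9.56% of all genes with ERα17p and 10.6% with estradiol. The share of all genes called lower was 8.82% and 8.42% in that order.

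Of 11 measured genes commonly induced by TGF-beta, 1 was higher and 3 were lower in each comparison (medians -0.04 with ERα17p and -0.03 with estradiol). SNAI2, a transcription factor of epithelial-mesenchymal transition, was the higher one, at 2.08 with ERα17p and 1.84 with estradiol. JUNB, an AP-1 subunit that is also an immediate early gene, was at -1.30 and -1.41 in that order. TAGLN, an actin-binding protein, was at -2.44 and -1.89, but its 3 probe sets ranged from -3.91 to -0.42 with ERα17p and from -3.29 to -0.20 with estradiol. The list had no common direction.

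Of 5 helix-loop-helix factors that ID proteins can pair with or act beside, 0 were higher and 1 was lower with ERα17p (median -0.03), and 1 was higher and 1 lower with estradiol (median -0.04). TCF4, an E protein, was the lower one, at -0.59 with ERα17p and -0.86 with estradiol, with probe sets of both signs. TCF3, the E protein that gives E12 and E47, was at -0.52 with estradiol, with its 14 probe sets between -2.82 and 0.12. HES1, a Notch-induced repressor, was at 0.31 with ERα17p and 0.64 with estradiol. HEY1, of the same family, was at 0.45 with ERα17p. TCF4 with ERα17p and HES1 with estradiol were under the call limit after quantile normalisation (-0.48 and 0.47). By the mean of probe sets HES1 with estradiol was also under it (0.54). TCF4 with estradiol was under it without probe sets that may match several transcripts (-0.56). HEY1 with ERα17p passed it after quantile normalisation, at 0.61.

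**Figure D4:**
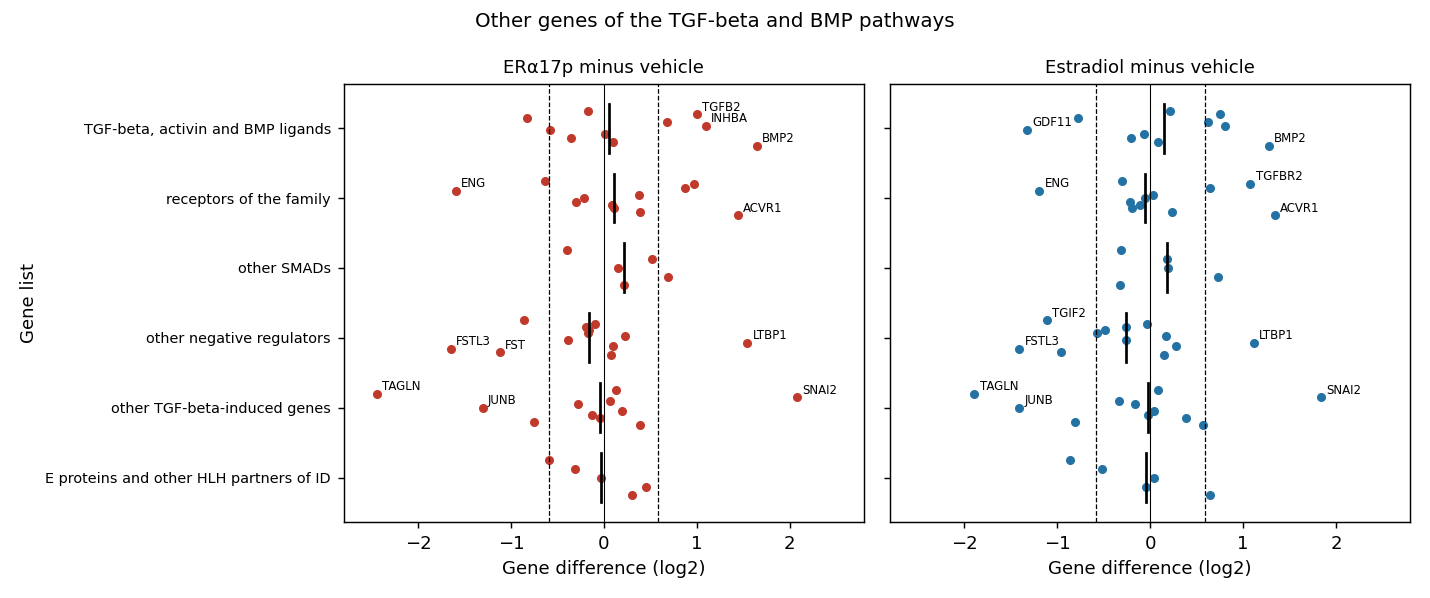
Log2 differences from vehicle (horizontal axis) of the genes of 6 pathway lists (rows), with 1 point for each gene, a black bar at each list's median and dashed lines at 1.5-fold. Genes at least 2-fold from vehicle are named, and every list's median lies between the dashed lines.

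Of the genes with 2 or more probe sets (10523), those nearest to ID3, the member with the largest difference, were found by Euclidean distance over the differences of ERα17p and of estradiol from vehicle, which share 1 array. They were TAGLN (distance 0.20), the adaptor subunit AP1M2 (0.25), the synaptic protein RIMS2 (0.33), and the splicing factors HNRNPA1 (0.42) and TRA2A (0.47). AP1M2 was at -2.35 with ERα17p and -1.76 with estradiol, with its probe sets close together, whereas those of RIMS2 and TRA2A included values near 0 or of both signs. In the direct comparison AP1M2 was at -0.59 and HNRNPA1 at 0.07, beside -0.28 for ID3.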

How the data were processed

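Expression was measured on 3 arrays, 1 for each group. Per the submitters' processing notes the authors used RMA (background correction, quantile normalisation and probe summary), whose version they do not name. The deposited values were read as log2, the scale of RMA output, although no source states the base. They had also been centred per probe set on an unstated level: the median is 0 on all arrays, and exact zeros make up 8.54% of the values with ERα17p, 8.14% with estradiol and 7.08% with vehicle.

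Symbols came from the platform's annotation (41097 probe sets with 1 symbol, 1801 with several, 11777 unnamed) and were updated through Entrez identifiers to RefSeq names. Differences were taken per probe set and summarised by the median per gene in Python 3.11.15 with pandas 2.3.3. No test was possible with 1 array in each group, and precision is limited by that number. The calculation was run on simulated data with known shifts, which checks its arithmetic only. The simulated vehicle array had no spread, unlike the real one.

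The members, the pathway lists and the marker lists were chosen with earlier results of these data known. Named genes were all 9 members, up to 3 genes of each pathway list with the largest absolute difference per comparison with vehicle, and the 5 genes nearest to the member with the largest difference. LUM, BMP4, BMP6 and BMP7 were named after their values were seen. Some listed genes are not reported here. Alternatives were the mean of probe sets, quantile normalisation, a 2-fold call and the centring level in place of vehicle. Another left out probe sets that may match several transcripts (names ending in _x_at or _s_at). ID2 with the probe set it shares with ID2B was added after the data were seen.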

Additional observations from a re-analysis of the deposited data

How the results depend on the processing

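No paired analysis was possible because each group has 1 array. With the mean of probe sets every call of the 9 genes stayed as reported, in all 3 comparisons. After quantile normalisation of the deposited values, 1 gene was called higher with ERα17p and 1 with estradiol in place of 2, since BAMBI was at 0.51 and 0.50. With ERα17p ID4 was at -0.55, under the call limit, which left 3 called lower, and with estradiol 4 were called lower. In the direct comparison 1 gene, ID3 at -0.61, was then called lower, beside 4.55% of all genes in place of 2.04%. The share of all genes was then 8.48% higher and 7.53% lower with ERα17p, and 9.73% higher and 6.27% lower with estradiol. Without probe sets that may match several transcripts, 6 of the 9 genes were left, ID1, ID2 and ID3 having none. In each comparison with vehicle 1 was then called lower, beside 8.63% of all genes with ERα17p and 8.43% with estradiol. The fall from 4 follows from the fewer genes. In each comparison 2 of the 6 were called higher, beside 9.23% and 10.3% of all genes. With a 2-fold call 1 gene was higher in each comparison with vehicle.

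Against the centring level in place of vehicle, counts added after the data were seen gave 0 higher and 1 lower with ERα17p, and 0 higher and 2 lower with estradiol. ID4 changed sign with ERα17p (0.12), as did ID2 with estradiol (0.24). Among the pathway genes JUNB did so with ERα17p (0.14) and with estradiol (0.032), and INHBA with estradiol (-0.054). Of 93 alternative values of the 9 genes, 80 kept their side of the call limit and 13 did not. Of 137 of named pathway genes, 98 kept it and 39 did not. Signs changed in 7 of the 93 and 4 of the 137, counting values under the limit, such as SMAD6 with ERα17p, whose reported difference was -0.01. Without the probe sets that may match several transcripts, TAGLN was at -0.42 with ERα17p and -0.20 with estradiol, and TGFB2 at 0.42 with ERα17p. The cause of these shifts was not tested. Signal over background is unknown, so some of these genes may be close to background on the arrays.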
